A study of Mus musculus with 4 samples.

Results

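Ribosome biogenesis factors are the proteins that transcribe ribosomal RNA and fold, cut, modify and export it while the subunits of the ribosome take shape. The set described here lists 40 mouse genes: subunits of RNA polymerase I, nucleolar scaffold proteins, core proteins of the particles that modify ribosomal RNA, and processing factors of the small and the large subunit. A gene counted as measured where at least 1 probe set, a group of short probes for a transcript, was annotated to that gene and to no other. By that rule 39 of the 40 were measured, by 80 of the 34945 probe sets with a single gene, among 18193 genes in all. Mrto4 was the exception, because its probe set also lists other genes. The rule uses gene names and annotation and no measured value, although the list was drawn up with results of these data known.

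RNA came from the bone marrow of 3 moribund mice with leukemia and from normal bone marrow as the control, and each sample was hybridised to 1 mouse expression array. Per the labels, the strain is C57BL6 and the leukemias grew out of hematopoietic precursors that had received fusion genes of MLL, a histone methyltransferase, and AF4, a transcription elongation factor. Mixed lineage leukemia carried both reciprocal fusions, AF4-MLL and MLL-AF4, while proB ALL (an acute lymphoblastic leukemia) and B/T BAL (a biphenotypic one) carried AF4-MLL alone. Whether the normal marrow had received cells or an empty vector, and the age and sex of the mice, are not stated in the labels. Cells were typed by flow cytometry and not sorted, so each array holds leukemic and resident marrow cells in unknown shares, and fewer cells of a type cannot be told apart from less RNA per cell. With 1 array for each immunophenotype the values have no replicate error, and fusion and immunophenotype cannot be told apart.

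RNA polymerase I transcribes ribosomal RNA in the nucleolus as a long precursor. Box C/D particles then methylate it and box H/ACA particles convert uridines to pseudouridine, at sites chosen by small nucleolar guide RNAs. The small subunit processome and the large subunit factors cut and fold the RNA, and late factors accompany the subunits to the cytoplasm. Many of these genes are textbook targets of Myc, a transcription factor that binds the E-box, and in blood cells and leukemias their output is tied to cell growth.

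The 39 measured genes were lowest in mixed lineage leukemia, intermediate in normal marrow and highest in the leukemias with AF4-MLL alone. This order held for 36 of the 39, against 13.3% of the 14012 genes tested. Mixed lineage leukemia was the lowest of the 4 arrays for 37 members (27.9% of all genes tested) and at least 2-fold below each of the other arrays for 19 members (5.3%). The exceptions to the order were Utp20 and Ltv1, which were lowest in normal marrow, and Bysl, which was lower in B/T BAL than in normal marrow. Differences are on the scale of log2(signal + 51.4), which understates changes of dim genes. A gene was tested where its brightest probe set exceeded a floor of 189, the median of all signals, on at least 1 array. All 39 measured members passed that filter, and 37 lay above the floor on all 4 arrays.

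**Figure D1:**
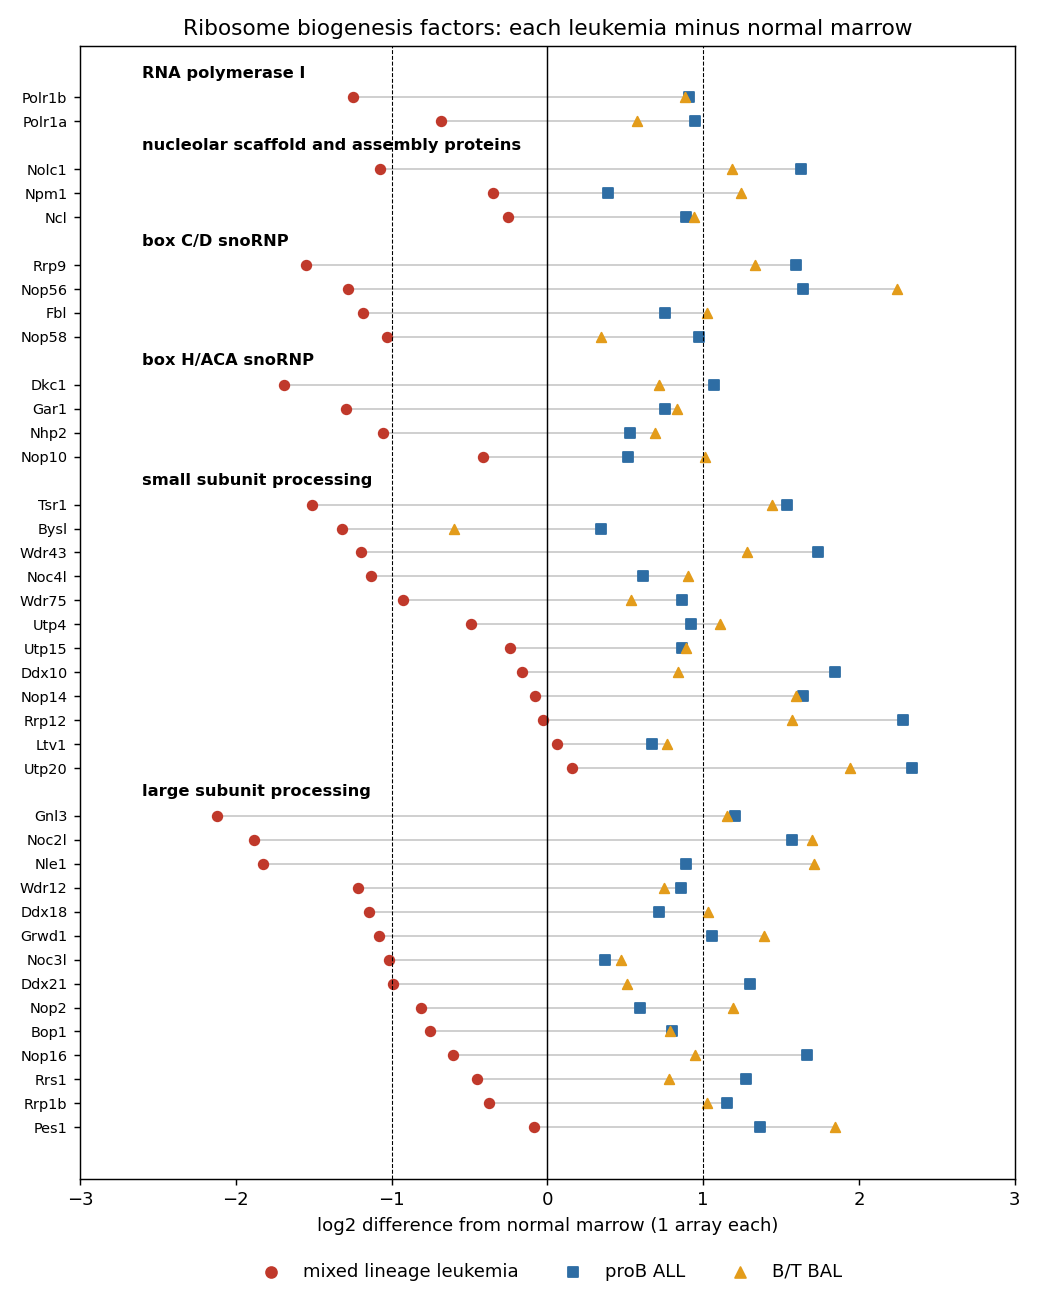
The log2 difference of each leukemia from normal marrow is plotted for the 39 measured genes, ordered by role, with 1 point per array and dashed lines at a 2-fold difference. The mixed lineage points lie to the left of 0 for all but Utp20 and Ltv1, and the proB ALL points lie to the right of 0 throughout.

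Against normal marrow, 20 of 39 members were at least 2-fold lower in mixed lineage leukemia and 0 were at least 2-fold higher. Of all genes tested 15.2% were lower and 18.8% higher there. Quantile normalization turned that split to 18.3% and 14.1%, and the members to 14 lower and 0 higher. In proB ALL 18 members were at least 2-fold higher (11.3% of all genes) and 0 lower (18.7%). In B/T BAL the members numbered 20 higher (15.4% of all genes) and 0 lower (17.7%). Over the members the log2 difference had a median of 1.01 in B/T BAL, 0.95 in proB ALL and -1.02 in mixed lineage leukemia, beside 0.05, -0.11 and 0.08 over all genes tested. These 3 comparisons share the 1 normal array. At the 2-fold limit, Noc3l (-1.02) lay just inside and Ddx21 (-0.99) just outside in mixed lineage leukemia, Grwd1 (1.06) and Nop58 (0.97) did so in proB ALL, and Nop10 (1.01) and Nop16 (0.95) in B/T BAL. No member was, by its brightest probe set, at least 2-fold higher in all 3 leukemias or at least 2-fold lower in all 3. Of all genes tested, 1.31% and 4.45% were.

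The members lay further apart between mixed lineage leukemia and each of the other leukemias. Mixed lineage leukemia was at least 2-fold below proB ALL for 36 members and above it for 0, where 15.7% of all genes were lower and 27.3% higher. It was at least 2-fold below B/T BAL for 37 members and above it for 0, where 21.2% of all genes were lower and 26.3% higher. The median log2 difference was -1.94 from proB ALL and -1.75 from B/T BAL, beside 0.18 and 0.08 over all genes tested. Utp15 (-1.11) lay just inside 2-fold and Nop10 (-0.93) just outside against proB ALL, and Ddx10 (-1.0) and Bysl (-0.72) did so against B/T BAL. B/T BAL minus proB ALL had a median of -0.02 over the members, with 0 of them at least 2-fold higher (15.9% of all genes) and 1, Ddx10, at least 2-fold lower (10.5%). Once all genes were centred on their median, a setting added after the data were seen, 12.4% of all genes were higher and 13% lower in that pair. Without replicates, no interval can be put on the closeness of those 2 arrays.

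**Figure D2:**
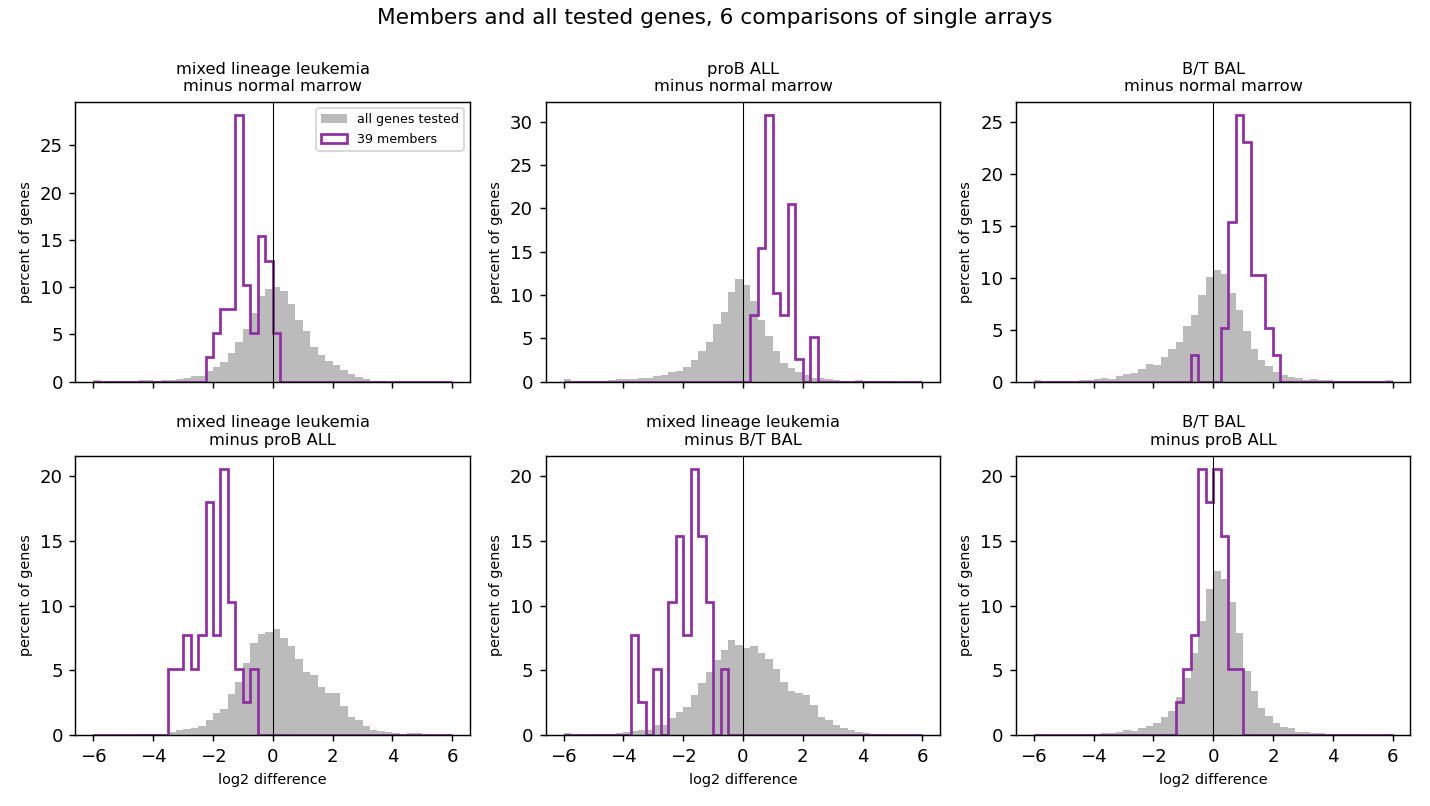
Percent of genes by log2 difference in bins of 0.25 is shown for each of the 6 pairs of arrays, with all 14012 genes tested in grey and the 39 members as an outline. The members lie left of 0 in the panels that set mixed lineage leukemia against the other leukemias, and around 0 in the panel of B/T BAL against proB ALL.

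RNA polymerase I was represented by its largest subunits, which form the catalytic core. Polr1a had signals of 1738 in B/T BAL, 2263 in proB ALL, 1148 in normal marrow and 696 in mixed lineage leukemia. Polr1b had 2330, 2369, 1238 and 492 on the same arrays. Both were lowest in mixed lineage leukemia, and Polr1b was 2.51-fold lower there than in normal marrow and 4.81-fold lower than in proB ALL. Polr1a was measured by 5 probe sets that differed in pattern. A pair of them lay below the floor on all arrays but mixed lineage leukemia, where they had 269 and 263, and a mean over its probe sets turned the gene's log2 difference from the other leukemias to 0.19.

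Of the nucleolar scaffold proteins, Ncl (nucleolin, an RNA-binding protein of the nucleolus) had signals of 41057 in B/T BAL, 39611 in proB ALL, 21334 in normal marrow and 17875 in mixed lineage leukemia. Npm1 (nucleophosmin, a chaperone of histones and ribosomal proteins) had 58329, 32180, 24604 and 19317. By the brightest probe sets of both genes the gap between mixed lineage leukemia and normal marrow was small, 1.19-fold and 1.27-fold. The other leukemias stood above normal marrow. Other Ncl probe sets above the floor on all 4 arrays had wider gaps, with log2 differences of -1.45, -0.81 and -0.56. Nolc1, a chaperone of small nucleolar particles, had 5541, 7538, 2409 and 1116. It was 2.16-fold lower in mixed lineage leukemia than in normal marrow and 3.13-fold higher in proB ALL than in normal marrow.

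All 4 box C/D genes were at least 2-fold lower in mixed lineage leukemia than in normal marrow. Nop56, a core protein of these particles, had signals of 18957 in B/T BAL, 12455 in proB ALL, 3954 in normal marrow and 1601 in mixed lineage leukemia. It was 11.8-fold lower in mixed lineage leukemia than in B/T BAL. Its partner Nop58 had 1536, 2398, 1197 and 559, with B/T BAL 1.28-fold above normal marrow. Fbl (fibrillarin, the methyltransferase) had 29406, 24409, 14418 and 6319. Rrp9, a protein of the U3 particle that is needed for early cuts of the precursor, had 1394, 1679, 522 and 144. The mixed lineage signal of Rrp9 lay below the floor, so it was at least 8.9-fold lower than in proB ALL.

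The 4 box H/ACA genes had the same order. Dkc1 (dyskerin, the pseudouridine synthase, which also binds telomerase RNA) had signals of 16054 in B/T BAL, 20493 in proB ALL, 9738 in normal marrow and 2983 in mixed lineage leukemia, a 6.87-fold gap between mixed lineage leukemia and proB ALL. Gar1, a core protein beside it, had 8872, 8398, 4957 and 1995. Its partners Nhp2 and Nop10 had 21733, 19408, 13437 and 6443, and 35882, 25448, 17791 and 13346. By the brightest probe sets, Nop10 was the gene of this group nearest to normal marrow in mixed lineage leukemia, with a log2 difference of -0.41. The other probe set of Nop10 had -1.08, and that of Nhp2 had -0.72.

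**Figure D3:**
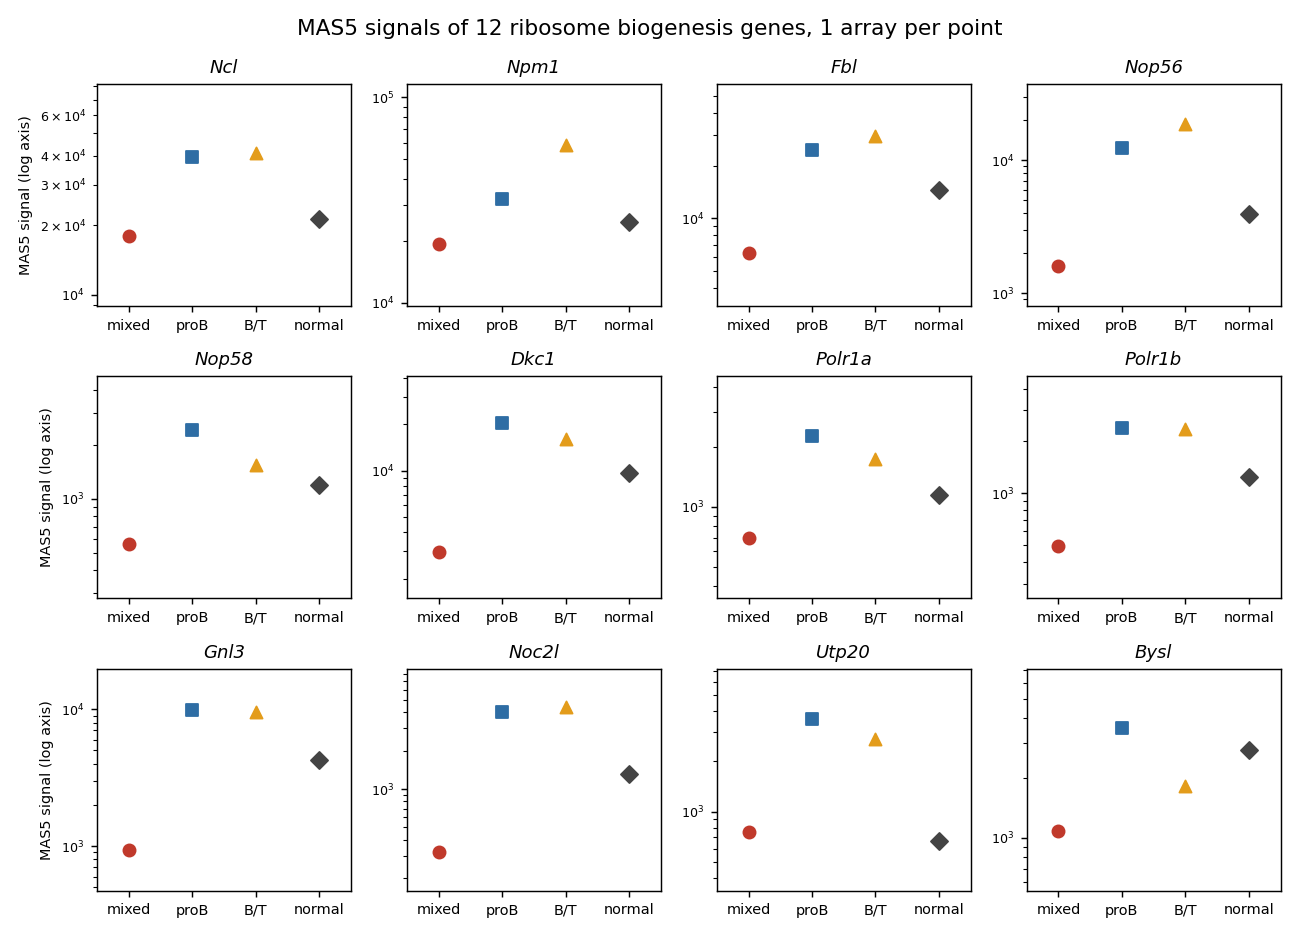
MAS5 signals of 12 members are plotted on log axes, 1 point for each array. The mixed lineage point is the lowest in every panel except that of Utp20, where normal marrow is at 670 and mixed lineage leukemia at 755.

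Small subunit factors split in how far mixed lineage leukemia lay below normal marrow. Over the 12 genes the log2 difference ran from -1.51 to 0.16, with 4 at least 2-fold lower. Tsr1, a 40S assembly factor, had signals of 9542 in B/T BAL, 10193 in proB ALL, 3477 in normal marrow and 1184 in mixed lineage leukemia. Wdr43, part of the complex that links transcription to processing, had 4745, 6528, 1919 and 808. Noc4l had 3222, 2627, 1702 and 749. These genes were low in mixed lineage leukemia and high in both others. Bysl (bystin, a 40S assembly factor) had 1817, 3557, 2785 and 1084, so that both mixed lineage leukemia and B/T BAL lay below normal marrow.

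Several small subunit genes differed from normal marrow mainly in the leukemias with AF4-MLL alone. Utp20, a large scaffold protein, had signals of 2721 in B/T BAL, 3607 in proB ALL, 670 in normal marrow and 755 in mixed lineage leukemia, and had the highest log2 difference of the members in proB ALL, 2.34. Rrp12, a factor in subunit export, had 1140, 1907, 350 and 342. Nop14 had 2549, 2629, 809 and 764. In these genes mixed lineage leukemia and normal marrow were within 1.13-fold of each other. Ddx10, an RNA helicase, had 2518, 5111, 1385 and 1231. It was the only member at least 2-fold above all other arrays in proB ALL, no larger a share than the 421 of 14012 genes tested. Ltv1, which joins the late 40S particle, had 3494, 3262, 2030 and 2122, the narrowest spread of the 39. Of the rest, Wdr75, Utp4 and Utp15, proteins of the same transcription-linked complex as Wdr43, had log2 differences of -0.93, -0.49 and -0.24 in mixed lineage leukemia. They had 0.87, 0.92 and 0.86 in proB ALL and 0.54, 1.11 and 0.89 in B/T BAL.

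Judged by the brightest probe sets, the members furthest below normal marrow in mixed lineage leukemia were large subunit factors. Gnl3 (nucleostemin, a nucleolar GTPase of proliferating and stem cells) had signals of 9581 in B/T BAL, 9905 in proB ALL, 4277 in normal marrow and 944 in mixed lineage leukemia. It was 4.53-fold lower in mixed lineage leukemia than in normal marrow and 10.5-fold lower than in proB ALL. Noc2l, which acts in pre-60S assembly and also binds histones, had 4394, 4010, 1317 and 319, a gap of 13.8-fold between B/T BAL and mixed lineage leukemia. Its other probe set, also above the floor on all 4 arrays, had a much smaller gap, with 1576, 3072, 1185 and 920. Nle1, which is released from the pre-60S particle by the ATPase Mdn1, had 1687, 933, 480 and 98.5. With its mixed lineage signal below the floor, it was at least 8.95-fold lower there than in B/T BAL.

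Grwd1, which binds histones and pre-60S particles, had signals of 3480 in B/T BAL, 2753 in proB ALL, 1298 in normal marrow and 588 in mixed lineage leukemia. Ddx18, an RNA helicase, had 6730, 5391, 3265 and 1447. Ddx21, a helicase that also acts in transcription by RNA polymerase I, had 3288, 5729, 2291 and 1129. In these genes both other leukemias stood above normal marrow. Noc3l had 860, 798, 605 and 273 by its brightest probe set. The other probe set of Noc3l had 971, 1111, 865 and 32.8. Its mixed lineage signal lay below the floor, and its log2 difference from normal marrow there was -3.44.

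The PeBoW complex of Pes1, Bop1 and Wdr12, which is needed to mature the RNAs of the large subunit, was not uniform against normal marrow. Pes1 had signals of 5625 in B/T BAL, 4018 in proB ALL, 1531 in normal marrow and 1437 in mixed lineage leukemia. Bop1 had 3741, 3773, 2150 and 1253, and Wdr12 had 4473, 4825, 2640 and 1107. By these probe sets all 3 were at least 2-fold lower in mixed lineage leukemia than in each of the other leukemias. Against normal marrow Pes1 was within 1.07-fold there and Wdr12 was 2.39-fold lower. The other probe set of Bop1 had 773, 1444, 147 and 555, below the floor only in normal marrow. Its log2 difference from normal marrow was 2.06 in B/T BAL, 2.92 in proB ALL and 1.61 in mixed lineage leukemia.

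Nop16 had signals of 3145 in B/T BAL, 5204 in proB ALL, 1605 in normal marrow and 1037 in mixed lineage leukemia. For Nop2 (an RNA methyltransferase), Rrs1 and Rrp1b the log2 differences from normal marrow were -0.81, -0.45 and -0.37 in mixed lineage leukemia. They were 0.59, 1.27 and 1.16 in proB ALL and 1.19, 0.78 and 1.02 in B/T BAL. In all 14 measured large subunit genes the order was mixed lineage leukemia, normal marrow and then both other leukemias.

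Of the members, 8 were at least 2-fold lower in mixed lineage leukemia and at least 2-fold higher in both other leukemias than in normal marrow, as 0.585% of all genes tested were. They were Nop56, Rrp9, Nolc1, Wdr43, Tsr1, Noc2l, Gnl3 and Grwd1. They came from 4 of the 6 role groups, with no polymerase and no box H/ACA gene among them. This reading is that of the brightest probe sets, and Rrp9 and Gnl3 had no other. Some other probe sets above the floor on all 4 arrays put mixed lineage leukemia less than 2-fold from normal marrow. Their log2 differences were 0.11 for Tsr1, -0.35 for Noc2l, -0.43 for Wdr43, -0.38 and -0.41 for Nolc1, and -0.79 for the dimmest of Grwd1. Another of Grwd1 kept the pattern. The other one of Nop56 was less than 2-fold higher in proB ALL (0.99) and B/T BAL (0.66).

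Limma fits across all genes gave no call. For the 3 leukemias against normal marrow, 0 of the 39 members passed a Benjamini-Hochberg adjusted p of 0.05 (0% of all genes), and 0 had an unadjusted p under 0.05, where 0.314% of all genes were higher and 2.63% lower at that level. In that fit the members' differences from normal marrow ran in opposite directions among the leukemias, and the fit takes the spread of the single normal array from theirs. Without mixed lineage leukemia, 9 members were higher and 0 lower at an unadjusted limma p under 0.05, where 2.27% of all genes were higher and 6.5% lower, and 0 members passed after adjustment (0% of all genes).

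For both fusions against AF4-MLL alone, 1 array against 2 with 1 residual degree of freedom, 30 of the 39 members were lower and 0 higher at an unadjusted limma p under 0.05, where 5.47% of all genes were lower and 12.3% higher. None of the 30 passed limma's adjusted threshold, nor did any other gene (0% of all genes tested). The members with the largest differences were Noc2l (log2 difference -3.52, SE 0.54, limma adjusted p = 0.151), Gnl3 (-3.30, SE 0.47, limma adjusted p = 0.151), Nop56 (-3.22, SE 0.52, limma adjusted p = 0.151) and Nle1 (-3.13, SE 0.82, limma adjusted p = 0.184). With signals below the floor raised to the floor, 4 members passed as lower, and of all genes 62 passed as lower and 2459 as higher. By its other bright probe set, Noc2l had a log2 difference of -1.22. The gene's own spread in this fit is between B/T BAL and proB ALL, which are different leukemias and no replicates of a group. It counts for 1 degree of freedom in the p-values, against 3.91 from limma's intensity trend over all genes.

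Probe sets that were not chosen to represent a gene gave a second reading from the same RNA. Of the 41 other probe sets, 35 had the same sign as the representative in mixed lineage leukemia minus proB ALL, and 35 in mixed lineage leukemia minus B/T BAL. Among the 28 of them above the floor on all 4 arrays, all 28 did so in both comparisons, with median log2 differences of -1.48 and -1.66. Among the 13 at or below the floor on at least 1 array, 7 did so in each, with medians of -0.25 and -0.02. Agreement was weaker in mixed lineage leukemia minus normal marrow, where 29 of the 41 had the sign of the representative. There 25 of the 28 above the floor did so, with a median of -0.74, and 7 of these 28 fell by 2-fold or more. Only 4 of the 13 dim ones did so, with a median of 0.92. Of these 13, 6 rose by 2-fold or more and 4 fell by as much. On the log2 scale, dim probe sets of Wdr12, Polr1a and Pes1 were at least 2-fold higher in mixed lineage leukemia than in proB ALL, opposite to the bright probe sets of those genes. All of them were below the floor in proB ALL, and that of Wdr12 was so on all 4 arrays, so none has a 2-fold difference above the floor. For Wdr12 the mean over probe sets turned the log2 difference from normal marrow to 0.39, against -1.22 for the brightest probe set. For Wdr75, leaving out probe sets whose suffix marks probes shared between transcripts turned it from -0.93 to 1.86.

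**Figure D4:**
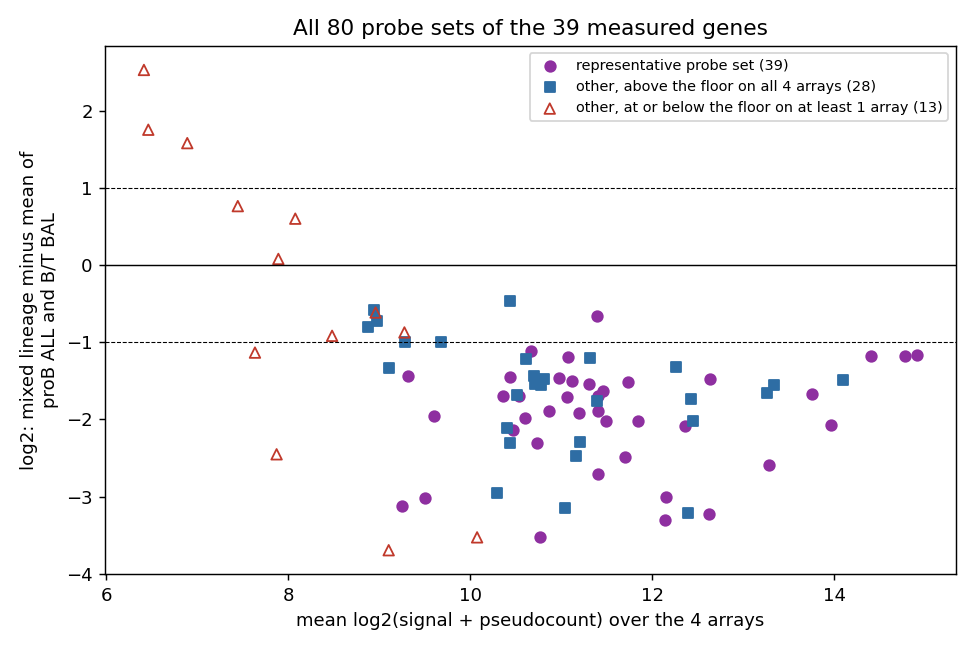
Each of the 80 probe sets of the measured genes is placed by its mean log2 value over the 4 arrays and by its log2 value in mixed lineage leukemia minus the mean of the other leukemias. The points at the bright end all lie below 0, and the few points above 0 are dim probe sets at or below the floor on at least 1 array.

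Dim probe sets were raised over the whole mixed lineage array. There 57.5% of probe sets lay above the floor, against 46.4% to 49.0% on the other arrays, and the 2nd percentile of signals was 20.4 against 2.88 to 3.97. Among the 8802 genes above the 75th percentile of signals on at least 1 array, 17.3% lay at least 2-fold below normal marrow in mixed lineage leukemia and 8.88% above it, while 19 of 38 members were lower and 0 higher. The ratio of 3' to 5' signal of the Actb control was 4.72 in B/T BAL, 2.47 in proB ALL, 1.87 in normal marrow and 3.10 in mixed lineage leukemia, and that of Gapdh was 1.14, 1.28, 0.944 and 1.24. The part of RNA quality and array background in the members' differences was not tested.

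Other genes of the pathway, 117 measured of 120 listed and none of them a member, lay closer to normal marrow. Their median log2 difference was 0.68 in B/T BAL, 0.71 in proB ALL and -0.40 in mixed lineage leukemia. In mixed lineage leukemia 15 lay at least 2-fold below normal marrow, no larger a share than the 15.2% of all genes tested, and 2 above (18.8% of all genes). In proB ALL 37 were higher (11.3% of all genes) and 1 lower (18.7%), and in B/T BAL the counts were 34 (15.4%) and 0 (17.7%). The members' order of arrays held for 68 of the 117 (13.3% of all genes tested). Bms1, a GTPase of the small subunit processome, was the 1 gene among them that was at least 2-fold higher in all 3 leukemias, with signals of 26947 in B/T BAL, 24913 in proB ALL, 3787 in normal marrow and 11015 in mixed lineage leukemia. It is named here after its values were seen.

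Genes of the cytosolic ribosomal proteins had another order of medians on the scale as deposited. The 46 tested had a median log2 difference of 1.08 in B/T BAL, 0.09 in proB ALL and 0.54 in mixed lineage leukemia. Quantile normalization, which forces the brightest probe sets of all arrays to the same values, gave 0.13, 0.07 and -0.06, and scaling to the 75th percentile gave -0.01 for proB ALL, so the direction in proB ALL and in mixed lineage leukemia depends on the scaling, and after quantile normalization the medians took the members' order. The members' order held for 4 of these 46 genes, and for 11 after quantile normalization, against 36 and 33 of the 39 biogenesis factors. The 76 mitochondrial ribosomal protein genes had medians of 0.49, 0.33 and -0.24, the members' order at smaller sizes, with 35 of the 76 genes in it. Cell cycle genes, 15 tested, had medians of -0.38, -0.88 and -0.46 and these medians stayed below 0 under every scaling tried, although 6 of the 15 genes were above normal marrow in B/T BAL and 1, Tyms, was so in proB ALL. With 1 array in each group, these differences between lists have no test.

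**Figure D5:**
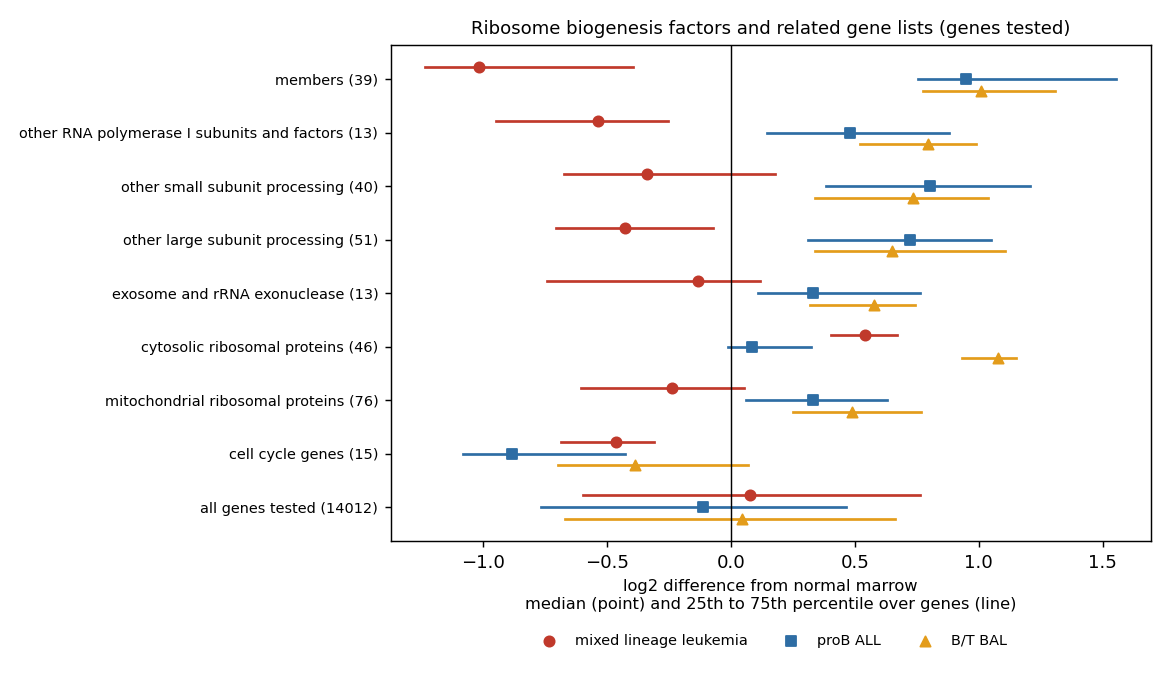
Medians (points) and 25th to 75th percentiles over genes (lines) of the log2 difference from normal marrow are given for the members, 4 other lists of the pathway, ribosomal proteins, cell cycle genes and all genes tested, with the number of genes tested in brackets. The members have mixed lineage leukemia at -1.02 and the other leukemias at 0.95 and 1.01, while the cytosolic ribosomal proteins have mixed lineage leukemia at 0.54 on this scale and at -0.06 after quantile normalization.

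Myc had signals of 9292 in B/T BAL, 5373 in proB ALL, 2774 in normal marrow and 521 in mixed lineage leukemia, the same order as most members. Mycn had 412 in mixed lineage leukemia and 225 in normal marrow and did not reach the floor in B/T BAL or proB ALL, and Mycl did not reach it on any of the 4 arrays. The part of Myc in the members' levels was not tested.

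The E-box CACGTG, which reads the same on both strands, was searched in promoter windows of 300 bases, from 250 bases before to 50 after each annotated start (RefSeq, GRCm38.p6). Of the 34 measured members with a window, 9 held it (26.5%), against 11% of the 11292 tested genes with a window and 8.09% of all 27025 genes with one. The 9 matches are shown with up to 12 bases on each side, 5' to 3' on the strand of the gene and with the E-box in capitals, so that flanks and members can be compared:
Nop2: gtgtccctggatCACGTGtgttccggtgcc
Pes1: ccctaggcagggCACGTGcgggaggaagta
Utp4: tgcgcaagcgcgCACGTGgggccggggcgg
Wdr43: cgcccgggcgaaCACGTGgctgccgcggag
Nle1: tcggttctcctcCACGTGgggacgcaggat
Tsr1: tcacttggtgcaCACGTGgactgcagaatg
Ltv1: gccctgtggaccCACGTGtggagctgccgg
Grwd1: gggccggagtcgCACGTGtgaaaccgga
Utp20: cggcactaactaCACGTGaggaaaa

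The Nop2 match began 60 bases before the annotated start (chr6:125131811-125131840, + strand). The other 8 began after it, by 2 bases in Pes1 (chr11:3963965-3963994, +), 15 in Utp4 (chr8:106893643-106893672, +), 17 in Wdr43 (chr17:71616220-71616249, +) and 23 in Nle1 (chr11:82908355-82908384, -). They lay 24 bases after it in Tsr1 (chr11:74898092-74898121, +), 28 in Ltv1 (chr10:13193092-13193121, -), 34 in Grwd1 (chr7:45830740-45830767, -) and 37 in Utp20 (chr10:88826765-88826789, -). The 9 members with a match had a median log2 difference of -1.98 between mixed lineage leukemia and the mean of the other leukemias, from -3.13 in Nle1 to -0.66 in Ltv1. The 25 with a window and no match had a median of -1.89. Against normal marrow the median in mixed lineage leukemia was -0.81 with a match and -1.05 without. A match describes the letters of the window and not binding.

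Cell type markers also differed between the arrays. The summed signal of 11 measured erythroid markers was 259133 in normal marrow and 10533 to 18578 in the leukemias, with all 10 tested at least 2-fold lower in each. For 11 neutrophil markers the sum was 426835 in B/T BAL, 132319 in proB ALL, 469355 in normal marrow and 760347 in mixed lineage leukemia, and for 9 monocyte and macrophage markers it was 14199, 20086, 47142 and 86820. T-cell markers (8 measured) summed to 179847, 49670, 4237 and 2112, and 9 NK and cytotoxic markers to 53497, 202493, 12987 and 11464. No neutrophil marker was at or below the floor on any array, while 0 of the 8 T-cell markers were so in B/T BAL, 4 in proB ALL and 4 in mixed lineage leukemia. Of the 9 NK and cytotoxic markers, 6 were at or below the floor in B/T BAL, 0 in proB ALL and 4 in mixed lineage leukemia. In B/T BAL the NK and cytotoxic sum was mostly Gzma, at 52157, and the other 8 of these markers were below normal marrow there. Neutrophil and monocyte sums were thus highest where the members were lowest. All 9 NK and cytotoxic markers were above normal marrow in proB ALL and all 8 T-cell markers in B/T BAL, the arrays where the members were highest.

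B-cell markers (8 measured) summed to 1452 in B/T BAL, 4393 in proB ALL, 35429 in normal marrow and 8203 in mixed lineage leukemia. On the array labelled proB ALL all 7 tested were at least 2-fold lower than in normal marrow, and the genes of the proB cell's surrogate light chain, Igll1 and Vpreb1, lay below the floor, which goes against that label. In B/T BAL, whose label also names a B component, all 7 were likewise at least 2-fold lower and both light chain genes were below the floor. Megakaryocyte markers (6 measured) summed to 2295, 2002, 32874 and 2835, and stromal and endothelial markers (8 measured) to 48337, 4265, 11067 and 8855. In B/T BAL the stromal and endothelial sum was mostly Col1a2, at 38648.5. The median log2 difference of these 8 markers from normal marrow was 0.05 there, with 2 at least 2-fold higher (15.4% of all genes) and 1 lower (17.7%). The part of cell composition in the members' differences was not tested.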

How the data were processed

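The deposited values are MAS5 signal intensities on a linear scale, 1 for each probe set, made by the authors per the submitters' processing notes. MAS5's version is not given in the sources used here. Each array had a trimmed mean of 1000 when 2% of its 45101 probe sets were removed at each end. The 64 control probe sets, 932 with several genes and 9160 unnamed here were left out. A gene was represented by the probe set of highest mean log2(signal + 51.4), a pseudocount set at the 25th percentile of the signals. Printed fold values are ratios of signals, with a dimmer side at or below the floor of 189 set to the floor and written "at least". Counts and limits of 2-fold instead use a difference of 1 on the scale of log2(signal + 51.4). Ddx21 in mixed lineage leukemia, 2.03-fold below normal marrow by signals, thus lay outside that limit. Limma 3.58.1 in R 4.3.3 (lmFit, eBayes with an intensity trend, Benjamini-Hochberg adjustment over 14012 genes) was tested on simulated data. The samples are separate leukemias, so p-values rest on the spread between immunophenotypes, which limma draws toward a trend over all genes. Members, lists and tests were chosen with earlier results of these data known. The rule for named genes took core factors, the members furthest from normal marrow in each leukemia, those at least 2-fold apart from all other arrays, those with opposite differences between leukemias or probe sets, and those at the 2-fold limit. Other genes were named to complete each role. Alternatives covered the pseudocount, scaling, the filter on dim genes, the choice of probe sets and each leukemia left out. Marker and pathway genes without a single-gene probe set were not analysed here.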

Additional observations from a re-analysis of the deposited data

Results flagged for a closer look

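For 12 members, 1 or both other leukemias lay at least 2-fold above normal marrow while mixed lineage leukemia lay at least 2-fold below it. For 8 of them both others did, a pattern of 0.585% of all genes tested. The share of all genes with 1 or both others higher was not counted. Values are those of the brightest probe set, and the higher of the other leukemias is given for each member. These differences rest on 1 array each and share the normal array, and whether they differ between leukemias was not tested. In B/T BAL minus mixed lineage leukemia the log2 difference was 2.21 for Fbl, 3.52 for Nop56, 3.59 for Noc2l, 2.18 for Ddx18, 2.47 for Grwd1 and 3.54 for Nle1. In proB ALL minus mixed lineage leukemia it was 2.76 for Dkc1, 3.15 for Rrp9, 2.94 for Wdr43, 2.70 for Nolc1, 3.32 for Gnl3 and 3.05 for Tsr1. No group held enough arrays for a search for outlying samples.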

How the results depend on the processing

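The order of mixed lineage leukemia below normal marrow below both others held for 31 to 37 members over all settings tried, with 35 to 39 members tested. Members at least 2-fold lower in mixed lineage leukemia than in normal marrow numbered 14 with quantile normalization, with 75th percentile scaling and with a mean over probe sets. Of all genes tested, 18.3%, 12.8% and 12.3% were lower in these settings. Those at least 2-fold below each of the other arrays numbered 13 to 21 over the settings, beside 5.3% of all genes tested in the setting used above. Without probe sets of the _x_at, _s_at and _a_at classes, 35 members were tested. Of these, 1 (Wdr75) was at least 2-fold higher in mixed lineage leukemia than in normal marrow (19.9% of all genes tested). In all 3 leukemias 1 was so. In the same setting 1 member had an unadjusted limma p under 0.05 for leukemia against normal marrow. That count ran from 0 to 9 when each leukemia was left out in turn, with 9, all higher, without mixed lineage leukemia, where 2.27% of all genes were higher and 6.5% lower. With dim signals raised to the floor, 4 members passed limma's adjusted threshold as lower for both fusions against AF4-MLL alone. Of the 14146 genes tested in that setting, 62 passed as lower and 2459 as higher. The members at least 2-fold lower in B/T BAL than in proB ALL numbered 0 with the pseudocount at the 50th percentile (7.82% of all genes). They also numbered 0 with quantile normalization (11.1%) and with 75th percentile scaling (9.59%). They numbered 2 without the 3 probe set classes and 2 with all genes centred on their median, the setting added after the data were seen. Scaling to the 75th percentile turned the members' median in that pair to 0.027 and moved the median of all genes in mixed lineage leukemia minus normal marrow from 0.08 to 0.23. A mean over probe sets gave 0.19 for Polr1a in mixed lineage leukemia minus the mean of the others and 0.39 for Wdr12 in mixed lineage leukemia minus normal marrow. The cause of these changes was not tested. With 1 array in each group, precision is limited by the number of arrays. No paired analysis was possible because each group held 1 array and the labels give no replicate numbers.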

Other observations

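The other pathway genes can be read by role. The 13 measured other genes of RNA polymerase I had a median log2 difference from normal marrow of 0.79 in B/T BAL, 0.48 in proB ALL and -0.54 in mixed lineage leukemia. The 40 other small subunit genes had 0.73, 0.80 and -0.34, the 51 other large subunit genes 0.65, 0.72 and -0.43, and the 13 genes of the exosome and ribosomal RNA exonucleases, which trim and degrade the precursor, 0.58, 0.33 and -0.13. Some single genes, named after their values were seen, followed the members closely. Nat10, an RNA cytidine acetyltransferase, had signals of 2640 in B/T BAL, 2840 in proB ALL, 829 in normal marrow and 331 in mixed lineage leukemia. Nob1, the endonuclease that makes the final cut of the small subunit RNA, had 3176, 2659, 1684 and 277. Taf1b, a subunit of the factor that recruits RNA polymerase I to its promoter, had 791, 785, 434 and 940, so that it was above normal marrow in all 3 leukemias and highest in mixed lineage leukemia.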
